A study of Mus musculus with 6 samples.

Results

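The genes described here code for enzymes that make and pass on sphingolipids, and the members are the 10 rows of the deposited table named Sptssa, Kdsr, Cers2, Cers5, Cers6, Degs1, Ugcg, Sgms1, Sphk1 and Sphk2, out of 53465 rows. The RNA came from a leukaemia line of the mouse, Nras(G12D)/MLL-AF9, named for mutant Nras and for the fusion that joins Kmt2a (MLL) to Mllt3 (AF9), and both groups carry both changes. The line grew with the cytokines SCF, IL-3 and IL-6. The OMP group received 100 µM 4'-O-methylpyridoxine (OMP), an analog of vitamin B6 that inhibits pyridoxal kinase, for 6 days, and the Vehicle group received an equal volume of PBS for the same time. Each group had 3 libraries of poly(A)-selected RNA. The labels do not say whether the line is a single clone or whether replicates came from separate cultures, so the p-values rest on a spread between libraries that can be technical.

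Sphingolipids are membrane lipids built on a sphingoid base. The base is formed from serine and a fatty acyl-CoA by serine palmitoyltransferase, an enzyme of the endoplasmic reticulum that needs pyridoxal phosphate, the active form of vitamin B6. It is then reduced, acylated and desaturated to ceramide, and ceramide is either kept, turned into sphingomyelin or glucosylceramide, or cut to sphingosine, which sphingosine kinases phosphorylate. The comparison asks which of these transcripts differed between OMP-treated and Vehicle cells.

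With OMP, mRNA of Degs1 and Cers2 was higher, and that of Cers6, Kdsr, Sphk2 and Cers5 was lower. Degs1 rose 1.32-fold and Cers2 1.11-fold, while Cers6 was 1.37-fold, Kdsr 1.36-fold, Sphk2 1.24-fold and Cers5 1.22-fold lower. Sptssa, Ugcg and Sgms1 did not pass the threshold, and Sphk1 had 0 reads in all 6 libraries. The threshold was an adjusted p of 0.05 in limma on log2(RPKM + 0.5), adjusted by the Benjamini-Hochberg method over 11020 genes tested, and fold changes on that scale understate the change of low genes. RPKM is reads per kilobase of gene, scaled to the library total. Of the 10 members 9 were tested, and 2 of them rose while 4 fell. Among all genes tested 15.4% were higher and 27.5% lower, 43.0% in either direction. The groups did not overlap for 2 higher and 5 lower members, against 19.9% and 34.6% of all genes tested (54.5% in either direction), and these counts give no ground to call the change particular to the members. The split of the 4735 calls into 1702 higher and 3033 lower depended on scaling. It was 2366 and 2236 with median-of-ratios scaling, 2244 and 2321 with quantile normalization and 1215 and 3973 after rescaling to TPM, which fixes the sum of all genes in a library. The median log2 fold change was -0.16 over the 9 members tested and -0.09 over all genes tested. In bulk RNA, fewer cells of a type and less RNA per cell cannot be told apart.

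**Figure D1:**
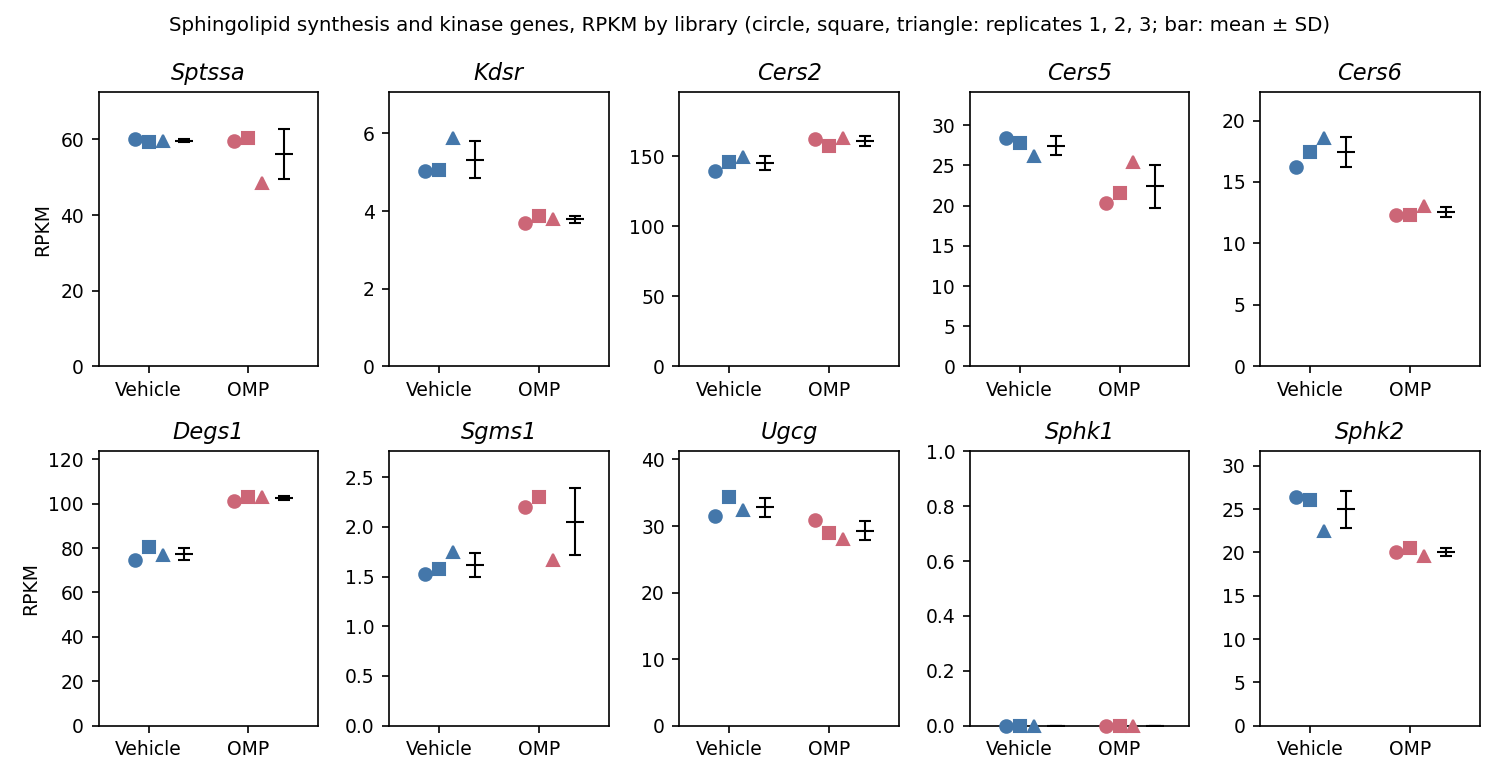
RPKM of each of the 10 genes (vertical axis, from 0, with its own range for each gene) in the 3 Vehicle and 3 OMP libraries, with the mean ± SD of each group as a bar. Degs1 and Cers2 lie higher in every OMP library than in any Vehicle library, Kdsr, Cers5, Cers6, Ugcg and Sphk2 lie lower, and Sphk1 is at 0 throughout.

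**Figure D2:**
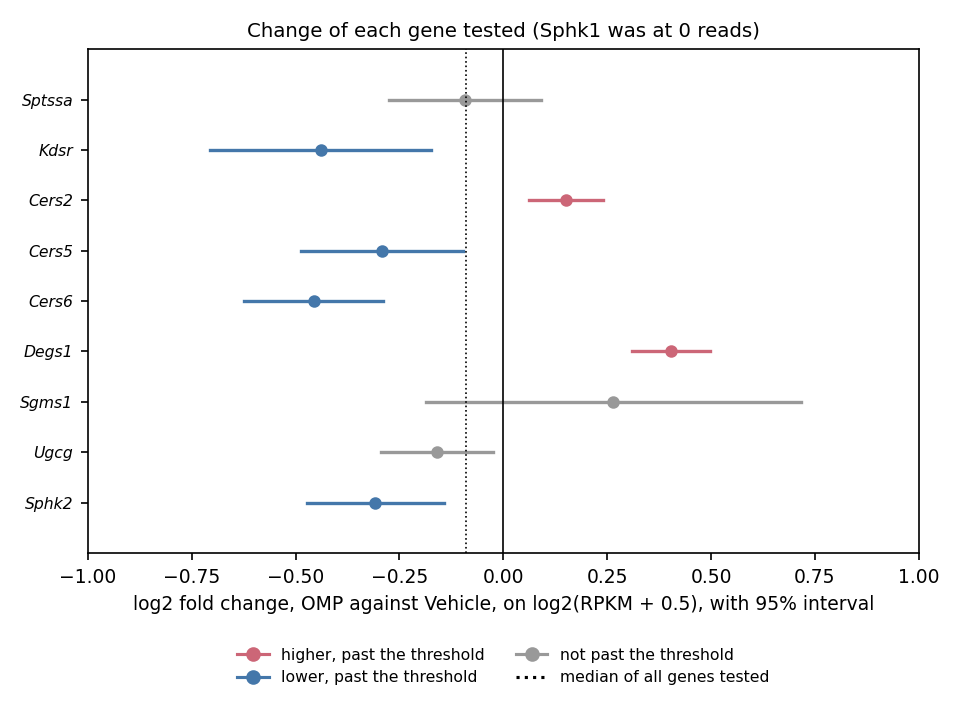
Log2 fold change of OMP against Vehicle for the 9 genes tested, with 95% intervals, coloured by direction where the adjusted p passed 0.05. The dotted line is the median of all genes tested, at -0.09. The intervals of the 2 rises, of the 4 falls and of Ugcg, which did not pass, lie apart from 0.

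The libraries held 3494986 to 4247619 reads, as recovered from the RPKM values, and members other than Sphk1 had 23 to 1409 reads in each. All 8 myeloid markers checked were tested. Of these Ptprc, Spi1, Itgam and Cd33 rose with OMP, and Csf3r, Mpo, Kit and Cebpa fell, by 1.28-fold, 4.14-fold, 2.17-fold and 1.63-fold. In contrast, B cell, T cell and erythroid markers summed to under 1 RPKM in every library and 3 of 5, 4 of 5 and 3 of 5 of them were at 0. Stromal and endothelial markers summed to 2.75 to 3.36 RPKM, most of it Pdgfrb, which did not pass (3.02 ± 0.160 to 2.69 ± 0.164 RPKM, limma adjusted p = 0.446). Maturation markers of granulocytes moved with the treatment, and all 9 of 9 rose. Their summed level was 2651 to 2760.0 RPKM in Vehicle libraries and 8919.7 to 9436 RPKM in OMP libraries. Most of that sum was S100a8 (means 1091 and 3033 RPKM) and S100a9 (1372 and 5462 RPKM). Ltf, at 0.515 to 1.07 RPKM under Vehicle, met the filter only through its OMP libraries, which favoured a rise. Of 7 tested handling-stress genes 5 rose and 2 fell, beside 15.4% and 27.5% of all genes tested. Fosb, 1 of these rises, was at most at 0.637 RPKM under Vehicle and met the filter through its OMP libraries alone. The part of any of these in the results below was not tested. Pdxk, the gene of pyridoxal kinase, stood at 10.3 ± 0.165 RPKM under Vehicle and 10.3 ± 0.718 with OMP (SD, n = 3; limma adjusted p = 0.965). Of the exonic bases of Pdxk, 39.0% are shared with 4921516A02Rik on the opposite strand. For Itgam, 68.7% are shared with Gm49368 on the same strand. The part of reads from these other genes was not tested.

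Levels of the members differed widely under Vehicle. In Vehicle libraries Cers2 was the highest at 145.1 RPKM, followed by Degs1 at 77.3, Sptssa at 59.6, Ugcg at 32.8, Cers5 at 27.4, Sphk2 at 25.0, Cers6 at 17.4, Kdsr at 5.33 and Sgms1 at 1.62 RPKM. The libraries of Cers5 and Sphk2 overlapped, so the order of that pair is not resolved, and the other neighbours were separate. These levels are per length, and for all 9 genes the length used in the RPKM equalled that of the longest annotated transcript. Where shorter transcripts carry most reads, such a level is too low.

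The first step of the pathway had a small subunit gene, Sptssa, that did not pass the threshold. Sptssa (ENSMUSG00000044408, GRCm38 chromosome 12, 54645392 to 54656573) codes for a small subunit that activates serine palmitoyltransferase and shapes its choice of acyl-CoA. Its Vehicle libraries had 60.03, 59.2 and 59.6 RPKM and its OMP libraries 59.5, 60.4 and 48.5 RPKM. OMP replicate 3 was low, and the other 2 OMP libraries lay in or just above the Vehicle range. The log2 fold change was -0.09 ± 0.08 SE with a 95% interval from -0.27 to 0.09 (limma adjusted p = 0.382), and without OMP replicate 3 it was 0.01.

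The catalytic subunits and the brakes of the same enzyme were examined beside it, from a list of 9 genes of which 7 were tested. Sptlc1 had 26.1 ± 1.997 RPKM under Vehicle and 28.5 ± 2.06 with OMP (limma adjusted p = 0.217). Sptlc2, the subunit that holds pyridoxal phosphate, had 20.02, 21.2 and 20.5 RPKM under Vehicle and 19.0, 17.2 and 18.6 with OMP. The Sptlc2 groups did not overlap, with a log2 difference of -0.17 ± 0.06 SE (limma adjusted p = 0.0613), which passed after rescaling to TPM (adjusted p = 0.0155) and with voom (0.0149). The ORMDL proteins restrain the enzyme when ceramide is plentiful. Ormdl1 was 1.36-fold lower (19.0 ± 1.19 to 13.9 ± 1.22 RPKM, limma adjusted p = 0.00298) and Ormdl3 1.55-fold lower (8.63 ± 1.65 to 5.37 ± 0.932 RPKM, adjusted p = 0.0132), while Ormdl2 had a log2 fold change of 0.09 ± 0.09 SE (adjusted p = 0.439). Of the exonic bases of Ormdl2, 66.7% are shared with Dnajc14 on the opposite strand, and the part of its reads was not tested. Rtn4, whose product Nogo-B binds and restrains the enzyme, rose 1.21-fold from 39.9 ± 1.203 to 48.5 ± 1.78 RPKM. The value is for the whole gene, with 10 annotated transcripts, and does not single out Nogo-B. Eml6 on the opposite strand shares 18.4% of the exonic bases of Rtn4. In all, 1 of the 7 tested genes rose and 2 fell. The share called, 42.9%, was near the 43.0% of all genes tested (15.4% higher and 27.5% lower).

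Kdsr fell. Kdsr (ENSMUSG00000009905, chromosome 1, 106720459 to 106759727) codes for 3-ketodihydrosphingosine reductase, which reduces the product of serine palmitoyltransferase to the free base. The Vehicle libraries had 5.04, 5.05 and 5.89 RPKM and the OMP libraries 3.68, 3.88 and 3.8 RPKM. Every OMP library was below every Vehicle library. The log2 fold change was -0.44 ± 0.12 SE (limma adjusted p = 0.0153), with 71 to 138 reads per library. The call was lost without Vehicle replicate 3, the highest library (-0.37, adjusted p = 0.0630), and by quantile normalization (-0.30, 0.0683).

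The ceramide synthase genes moved in different directions. Ceramide synthases attach a fatty acid to the sphingoid base, and each enzyme prefers certain chain lengths. Cers2 makes ceramides with very long chains, whereas Cers5 and Cers6 both favour palmitoyl-length chains. Cers2 (ENSMUSG00000015714, chromosome 3, 95314791 to 95323599) had 139.7, 145.8 and 149.7 RPKM under Vehicle and 162.7, 157.2 and 163.3 with OMP. The groups did not overlap, and the log2 fold change was 0.15 ± 0.04 SE (limma adjusted p = 0.0144). The rise of Cers2 was lost after rescaling to TPM (0.07, adjusted p = 0.230), by quantile normalization (0.11, 0.0639) and on leaving out Vehicle replicate 1 (0.12, 0.0531).

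Cers6 (ENSMUSG00000027035, chromosome 2, 68861441 to 69114282) had 16.2, 17.5 and 18.6 RPKM under Vehicle and 12.3, 12.3 and 13.0 with OMP. All OMP libraries were below all Vehicle libraries, and the log2 difference of -0.46 ± 0.07 SE (limma adjusted p = 0.00139) stayed past the threshold under all 16 alternatives. Cers5 (ENSMUSG00000023021, chromosome 15, 99734881 to 99772885) had 28.4, 27.7 and 26.1 RPKM under Vehicle and 20.3, 21.5 and 25.4 with OMP. OMP replicate 3 came close to the lowest Vehicle library without reaching it. The log2 fold change of Cers5 was -0.29 ± 0.09 SE (limma adjusted p = 0.0236). This call held under 9 of 16 alternatives. It was lost without Vehicle replicate 1 (adjusted p = 0.0739), Vehicle replicate 2 (0.0639), OMP replicate 1 (0.0713) or OMP replicate 2 (0.0676), without a filter on low values (0.0558), with median-of-ratios scaling (-0.20, 0.0812) and by quantile normalization (-0.21, 0.0758).

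Shares within the ceramide synthase genes do not depend on a library's total. Cers2 made up 75.8%, 76.3% and 77.0% of the summed RPKM of Cers2, Cers5 and Cers6 in Vehicle libraries and 83.3%, 82.3% and 81.0% in OMP libraries. The share was higher in every OMP library, by 5.82 percentage points on average (76.4 ± 0.606% against 82.2 ± 1.18%, SD, n = 3). The share of Cers6 was 9.17 ± 0.391% in Vehicle and 6.399 ± 0.0966% in OMP, and that of Cers5 14.5 ± 0.996% and 11.4 ± 1.10%. Each of these differences had a two-sided exact permutation p = 0.10, the smallest that 3 libraries against 3 can give, and 0.12 after Benjamini-Hochberg adjustment over the 6 shares tested in all. The shares of Cers5 and Cers6 were added after the data were seen. The remaining ceramide synthase genes Cers1, Cers3 and Cers4 were all under the filter and at or under 0.169 RPKM in every library.

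**Figure D3:**
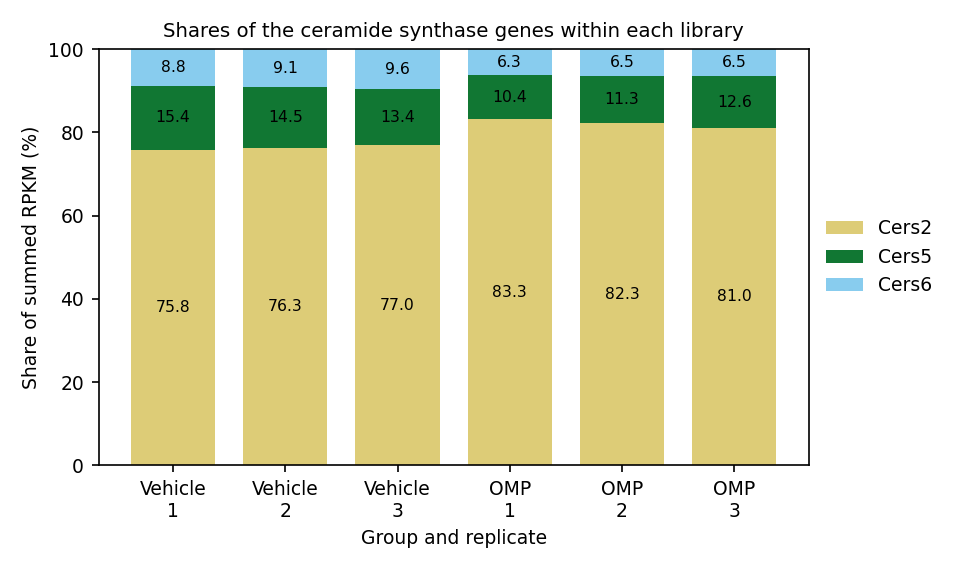
Share of the summed RPKM of Cers2, Cers5 and Cers6 (vertical axis, percent) held by each gene in each of the 6 libraries. Cers2 holds 75.8% to 77.0% in Vehicle and 81.0% to 83.3% in OMP, and both other genes hold less in every OMP library.

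Degs1 had the smallest adjusted p of the 9 members tested. Degs1 (ENSMUSG00000038633, chromosome 1, 182275772 to 182282804) codes for the dihydroceramide desaturase, which sets the double bond that turns dihydroceramide into ceramide. The Vehicle libraries had 74.9, 80.4 and 76.7 RPKM and the OMP libraries 101.4, 102.8 and 103.0 RPKM. The OMP libraries lay close together, and all were above the highest Vehicle library. The log2 fold change was 0.40 ± 0.04 SE with a 95% interval from 0.31 to 0.50 (limma adjusted p = 0.000131). It ranged from 0.32 to 0.49 and stayed past the threshold under all 16 alternatives. Degs2, the related desaturase and hydroxylase gene, was under the filter.

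The promoters of Cers2, Cers6 and Degs1 are shown because these genes moved in different directions and hold the same motif. The windows come from RefSeq on GRCm38.p6 and hold 250 bases before and 50 after an annotated start, all 10 members matched, and for genes with several windows the one nearest the GENCODE start was taken. The search covered both strands. It looked for the GC box, spelled GGGCGG, and for the CCAAT box. It also looked for the E-box CACGTG, a site of MYC and related factors, and for the TATA box in the form TATAAA. The sterol regulatory element and the C/EBP palindrome TTGCGCAA completed the set, and no motif contains another. Capitals mark every match, on either strand, so CCGCCC is GGGCGG read on the other strand. The plus or minus after the coordinates is the strand.
Cers2, chr3:95314940-95315239 (+): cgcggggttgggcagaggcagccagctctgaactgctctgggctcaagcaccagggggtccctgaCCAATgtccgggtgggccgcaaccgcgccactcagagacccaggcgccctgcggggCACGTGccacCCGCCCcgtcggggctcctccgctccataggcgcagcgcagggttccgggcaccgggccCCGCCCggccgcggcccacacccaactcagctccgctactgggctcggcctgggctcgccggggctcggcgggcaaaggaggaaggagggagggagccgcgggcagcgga
Cers6, chr2:68861191-68861490 (+): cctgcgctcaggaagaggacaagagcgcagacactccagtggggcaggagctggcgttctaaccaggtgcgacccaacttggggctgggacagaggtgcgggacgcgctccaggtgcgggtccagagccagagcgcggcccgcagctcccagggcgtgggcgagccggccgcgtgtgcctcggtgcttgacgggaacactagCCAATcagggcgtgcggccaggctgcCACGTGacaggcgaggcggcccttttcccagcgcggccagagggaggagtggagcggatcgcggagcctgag
Degs1, chr1:182282146-182282445 (-): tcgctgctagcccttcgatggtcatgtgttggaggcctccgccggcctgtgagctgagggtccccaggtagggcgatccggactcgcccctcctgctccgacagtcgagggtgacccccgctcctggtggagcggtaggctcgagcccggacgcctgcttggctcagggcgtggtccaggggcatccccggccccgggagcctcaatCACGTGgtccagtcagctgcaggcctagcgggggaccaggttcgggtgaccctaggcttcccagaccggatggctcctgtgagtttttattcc
The E-box was in these 3 of the 10 windows, and in 7.15% of 32851 RefSeq windows of 300 bases. Cers2 and Degs1 rose and Cers6 fell, so the motif was found beside changes in both directions. A GC box was in 7 of the 10 windows against 35.7% of all windows, and CCAAT in 3 of 10 against 37.4%. These shares are not matched for base composition. All windows had a median of 7 CG dinucleotides, while the chosen windows of members other than Sphk1 held 20 to 53. The GC box and the E-box both contain CG, so no excess can be read from their counts. Neither the sterol regulatory element (0.0913% of all windows) nor the C/EBP palindrome (0.183%) was in any of the 10. A match is a run of letters and does not show that a factor binds there.

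The genes that use ceramide for larger lipids did not pass the threshold among the members. Ugcg (ENSMUSG00000028381, chromosome 4, 59189257 to 59222833) codes for glucosylceramide synthase, which opens the glycosphingolipid branch. The Vehicle libraries had 31.5, 34.4 and 32.5 RPKM and the OMP libraries 30.9, 29.0 and 28.1 RPKM. The groups did not overlap, but the gap was narrow, and the log2 fold change was -0.16 ± 0.06 SE with an interval from -0.29 to -0.02 (limma adjusted p = 0.0572). Ugcg passed with a filter at an RPKM of 5 (adjusted p = 0.0483), after rescaling to TPM (0.0109), without OMP replicate 1 (0.0394) and with voom (0.0233).

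Sgms1 (ENSMUSG00000040451, chromosome 19, 32122727 to 32389714) codes for the sphingomyelin synthase of the Golgi. It was the lowest member with any reads, at 1.52, 1.57 and 1.75 RPKM under Vehicle and 2.20, 2.30 and 1.67 with OMP. These values stand for 23 to 33 reads per library, and OMP replicate 3 lay inside the Vehicle range. The log2 fold change of 0.26 ± 0.20 SE had an interval from -0.19 to 0.72 (limma adjusted p = 0.313), so its sign was not resolved. Ugcg made up 95.3 ± 0.376% of the summed RPKM of Ugcg and Sgms1 in Vehicle and 93.5 ± 0.885% in OMP (two-sided exact permutation p = 0.10, the smallest possible, adjusted p = 0.12).

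Most sphingomyelin synthase mRNA came from Sgms2, which is no member but far above Sgms1. Sgms2, whose enzyme acts mainly at the plasma membrane, rose 1.18-fold from 90.6 ± 3.90 to 106.6 ± 4.29 RPKM (limma adjusted p = 0.00476). Sgms1 held 1.76 ± 0.169% of the sum of both in Vehicle and 1.89 ± 0.334% in OMP (exact permutation p = 0.60, adjusted p = 0.60). With Sgms2 in the sum, the share of Ugcg was 26.2 ± 1.61% in Vehicle and 21.2 ± 0.578% in OMP, lower in every OMP library (exact permutation p = 0.10, adjusted p = 0.12). Both shares were added after the data were seen.

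Of the kinase pair, the mRNA of Sphk2 was present and that of Sphk1 was not detected. Sphingosine kinases turn sphingosine into sphingosine 1-phosphate, a signalling lipid that leaves the cell and acts on its own receptors. Sphk1 is known as a mainly cytosolic enzyme that growth signals move to the plasma membrane, and Sphk2 as one found also in the nucleus and on organelles. Sphk1 (ENSMUSG00000061878, chromosome 11, 116530925 to 116536674) had 0 reads in each of the 6 libraries. A floor of 3 reads on its longest annotated transcript (4063 bases) allows up to 0.174 to 0.211 RPKM per library, or 0.0323 RPKM over the 22843906 reads of all libraries, for counting error only. Only 4.02% of its exonic bases are shared with another gene, Gm29292 on the opposite strand, which was also at 0. Its share of the pair was 0% in all libraries and no difference could be tested.

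Sphk2 (ENSMUSG00000057342, chromosome 7, 45709467 to 45718002) had 26.4, 26.0 and 22.5 RPKM under Vehicle and 20.1, 20.5 and 19.5 with OMP. Every OMP library was below every Vehicle library, and Vehicle replicate 3 was the closest to them. The log2 fold change was -0.31 ± 0.07 SE (limma adjusted p = 0.00923), and it passed under all 16 alternatives at -0.40 to -0.22. Of the exonic bases of Sphk2, 21.9% are shared with Dbp and Rpl18 on the opposite strand, and the strand setting of the counting is not given in the sources used here. Rpl18, a ribosomal protein gene, was 1.21-fold lower with OMP (166.2 ± 9.70 to 136.8 ± 0.403 RPKM, limma adjusted p = 0.00157), and Dbp was at 2.27 ± 0.322 and 1.52 ± 0.681 RPKM. The part of Rpl18 reads in the Sphk2 values was not tested. In the other 9 members under 10% of exonic bases are shared with another gene.

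The promoter windows of the kinase genes are shown because only Sphk2 was detected in these libraries.
Sphk1, chr11:116530850-116531149 (+): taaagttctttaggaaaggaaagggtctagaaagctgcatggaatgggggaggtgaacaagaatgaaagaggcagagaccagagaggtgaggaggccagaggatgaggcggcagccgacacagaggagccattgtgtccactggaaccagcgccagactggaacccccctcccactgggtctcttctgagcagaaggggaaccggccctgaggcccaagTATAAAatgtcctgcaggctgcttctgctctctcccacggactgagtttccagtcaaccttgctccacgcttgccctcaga
Sphk2, chr7:45717953-45718252 (-): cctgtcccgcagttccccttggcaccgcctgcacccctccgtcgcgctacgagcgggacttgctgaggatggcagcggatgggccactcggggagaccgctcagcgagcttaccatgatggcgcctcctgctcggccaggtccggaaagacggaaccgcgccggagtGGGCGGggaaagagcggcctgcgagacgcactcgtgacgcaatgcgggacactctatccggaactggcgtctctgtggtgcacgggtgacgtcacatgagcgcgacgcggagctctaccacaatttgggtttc
This Sphk1 window holds 6 CG dinucleotides and a TATA box, and was the only 1 of the 10 chosen windows with a TATA box, a motif found in 13.6% of all windows. The Sphk2 window holds 33 CG dinucleotides and a GC box, and the 9 chosen windows of members other than Sphk1 hold 20 to 53. Sphk1 has 5 annotated windows, of which the others hold 14 to 21 CG dinucleotides, and none of them a TATA box. Windows not chosen for other members were as low, with 6 CG dinucleotides in one of Cers2 and 4, with a TATA box, in one of Sgms1, so the contrast depends on the starts chosen.

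Among genes around the members, more fell than rose, as among all genes tested (27.5% lower and 15.4% higher). Of 70 other sphingolipid genes 46 were tested, of which 6 rose and 19 fell, with a median log2 fold change of -0.17 against -0.09 for all genes tested. The split was 10 higher and 17 lower with median-of-ratios scaling and also with quantile normalization, and 3 and 24 after rescaling to TPM. The share called, 54.3%, stands beside 43.0% of all genes. By genes tested, the largest group was that of lysosomal and related enzymes and activators that take glycosphingolipids apart. Of its 11 tested genes 8 fell, beside 27.5% of all genes tested, and the median log2 fold change was -0.30. Gm2a, an activator protein of ganglioside breakdown, was 2.96-fold lower (8.78 ± 0.141 to 2.65 ± 0.316 RPKM, limma adjusted p = 2.70e-05). Galc, galactosylceramidase, was 1.88-fold lower, and Psap, the precursor of the saposins, 1.39-fold lower (116.1 ± 4.89 to 83.2 ± 5.25 RPKM). Hexa, an enzyme subunit of ganglioside breakdown, was 1.17-fold lower (150.5 ± 1.49 to 128.4 ± 1.44 RPKM). Gla, Glb1 and Neu1 were 1.21-fold, 1.27-fold and 1.23-fold lower. Gba2 passed narrowly (limma adjusted p = 0.0455) and held under 7 of 16 alternatives. Its adjusted p was 0.101 without Vehicle replicate 1, 0.144 without Vehicle replicate 3, 0.109 without OMP replicate 1, 0.0551 without OMP replicate 2 and 0.112 without OMP replicate 3.

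In the branch of ceramide transfer and sphingomyelin, 1 of 9 tested genes rose, Sgms2, and 4 fell. The share called was 55.6% in this branch and 33.3% among genes of glycosphingolipid synthesis. Among all genes tested it was 43.0% (15.4% higher and 27.5% lower). Cptp, a transfer protein for ceramide 1-phosphate, was 2.06-fold lower (10.6 ± 0.638 to 5.03 ± 1.48 RPKM, limma adjusted p = 0.0020). Samd8, a relative of the sphingomyelin synthases, was 1.38-fold lower and Gltp, a glycolipid transfer protein, 1.32-fold lower. Smpd4, a neutral sphingomyelinase, was 1.16-fold lower, and that call held under 8 of 16 alternatives (limma adjusted p = 0.0443, highest 0.224). It was lost on leaving out Vehicle replicate 1 (0.138), Vehicle replicate 3 (0.0999), OMP replicate 1 (0.0664) or OMP replicate 3 (0.131). Among 6 tested genes of glycosphingolipid synthesis, B4galnt1, the ganglioside GM2 and GD2 synthase, rose 1.13-fold (187.0 ± 6.48 to 210.9 ± 9.38 RPKM), a call lost after rescaling to TPM (adjusted p = 0.144), and St3gal2, a sialyltransferase, was the 1 that fell (3.96 ± 0.483 to 2.24 ± 0.188 RPKM).

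Enzymes that act on ceramide and sphingosine 1-phosphate changed in part. Cerk, ceramide kinase, was 1.78-fold lower, with 34.9, 36.6 and 37.3 RPKM under Vehicle and 19.7, 21 and 19.7 with OMP (limma adjusted p = 1.46e-05). Asah1, the lysosomal acid ceramidase that frees sphingosine, had a log2 difference of -0.05 ± 0.05 SE (limma adjusted p = 0.373). Asah1 passed as lower after rescaling to TPM (-0.14, adjusted p = 0.0376). Sgpl1, the lyase that ends the pathway and also needs pyridoxal phosphate, rose 1.16-fold, with 35.5, 32.6 and 37.5 RPKM under Vehicle and 40.4, 40.6 and 41.2 with OMP (limma adjusted p = 0.0211). The Sgpl1 groups did not overlap, and the call was lost after rescaling to TPM (adjusted p = 0.122), without Vehicle replicate 2 (0.0659) and without OMP replicate 3 (0.0591). Sgpp1, a phosphatase that returns sphingosine 1-phosphate to sphingosine, was 1.45-fold lower (51.1 ± 3.08 to 35.1 ± 3.04 RPKM, limma adjusted p = 0.000623).

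Of the receptors of sphingosine 1-phosphate, S1pr4 and S1pr2 were tested, and S1pr4 fell. S1pr4, the receptor typical of blood cells, was 1.41-fold lower, with 6.95, 6.15 and 7.10 RPKM under Vehicle and 4.92, 4.72 and 4.28 with OMP (limma adjusted p = 0.00679). S1pr2, named after its values were seen, was 1.98-fold lower at 1.97 ± 0.169 and 0.753 ± 0.188 RPKM. It met the filter through its Vehicle libraries alone, since its OMP libraries had 0.537 to 0.881 RPKM. The filter thus favoured a lower value for S1pr2, and its call, counted among the falls above, is no support. In the same list Mfsd2a, a lysolipid transporter gene, rose 1.41-fold (limma adjusted p = 0.0359), a call lost without Vehicle replicate 3 (adjusted p = 0.0806), OMP replicate 2 (0.105) or OMP replicate 3 (0.0841), without a filter (0.0969) and after rescaling to TPM (0.0580).

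**Figure D4:**
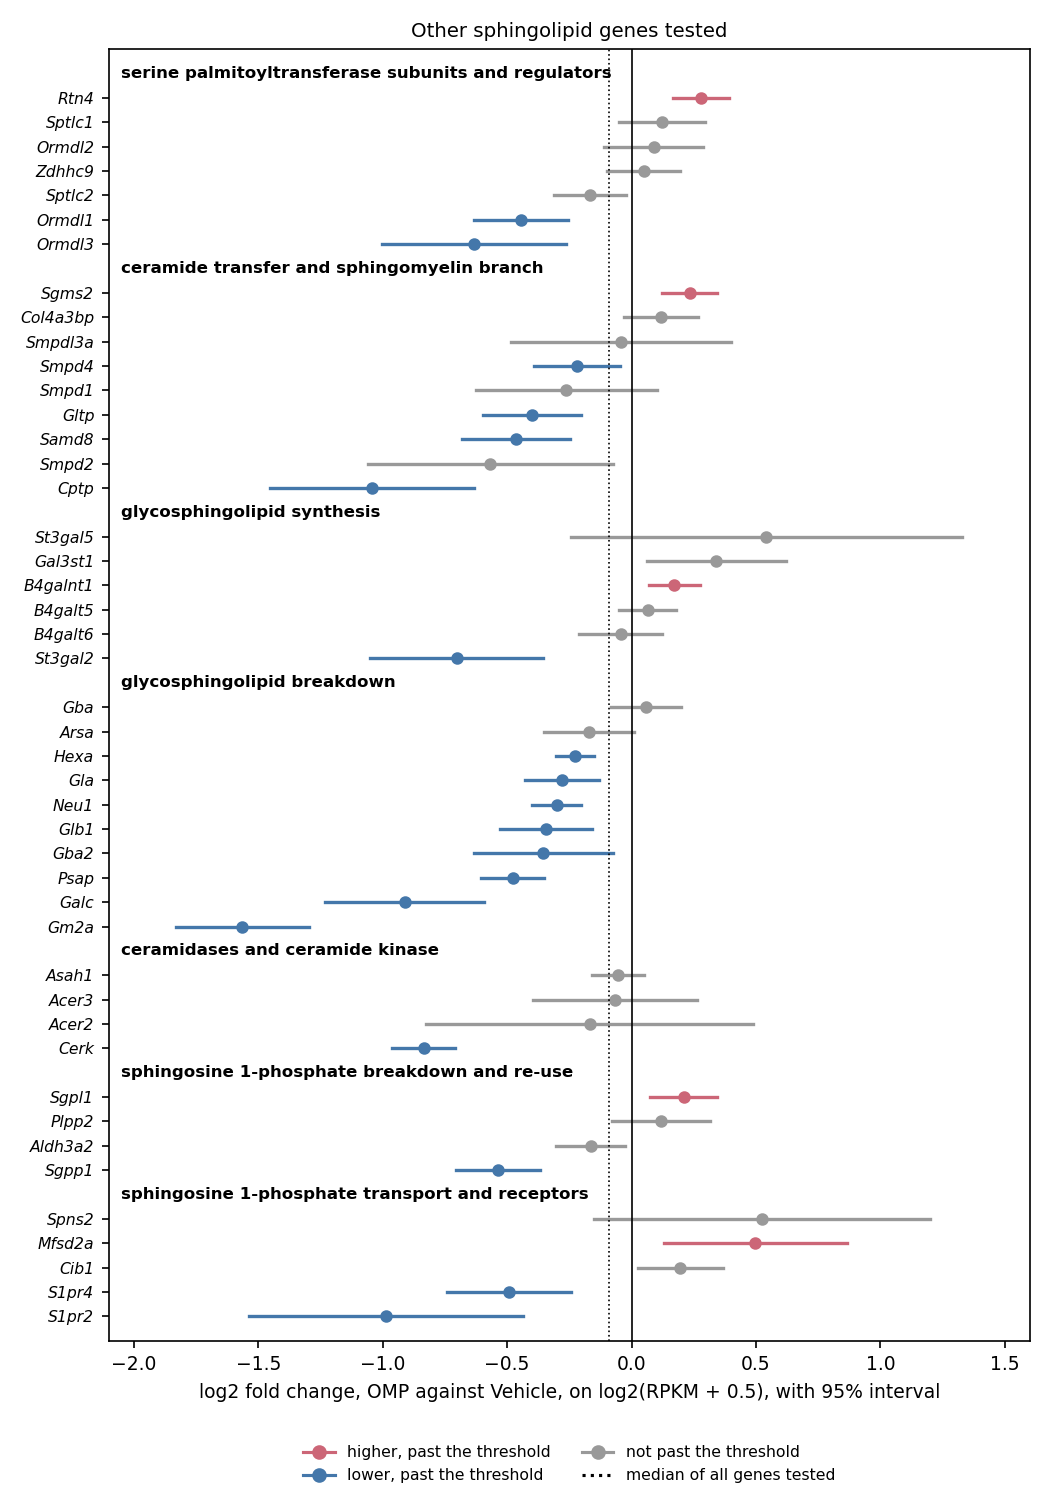
Log2 fold change of OMP against Vehicle with 95% intervals for the other sphingolipid genes tested and reported, grouped by role and coloured by direction where the adjusted p passed 0.05. The glycosphingolipid breakdown group holds 8 falls, and the dotted line is the median of all genes tested, of which 27.5% were lower.

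**Figure D5:**
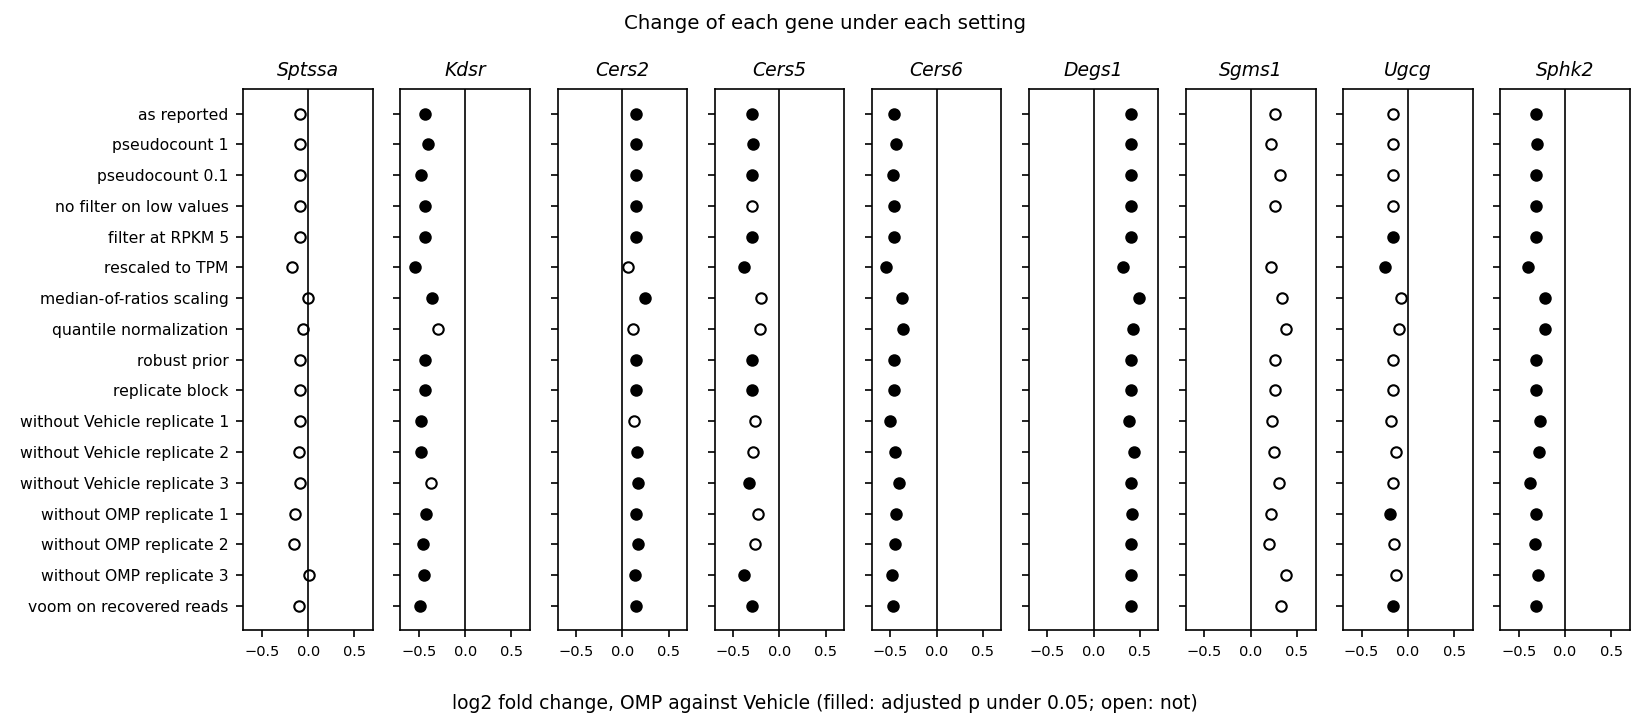
Log2 fold change of the 9 members tested (horizontal axis) as reported and under the 16 alternatives to the processing (rows), filled where the adjusted p passed 0.05. Cers6, Degs1 and Sphk2 are filled in every row, whereas Cers2, Cers5, Kdsr and Ugcg change sides in some.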

How the data were processed

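Poly(A)-selected RNA of 3 Vehicle and 3 OMP libraries was sequenced. The authors deposited RPKM values for 53465 Ensembl genes, made on mm10 (GRCm38) with STAR 2.5.3a, featureCounts 1.6.3, Trimmomatic 0.36 and FastQC 0.11.5, per the submitters' processing notes. Annotation release and strand setting: not given in the sources used here. RPKM steps gave whole reads for 100% of the 19970 genes above 0 in any library (tolerance 1e-06). Of these genes 94.6% fitted an annotated transcript length. For the rest a length that made the values whole was searched, so whole reads there are partly built in. The recovered depth was 3494986 to 4247619 reads, so that 3 reads on 1 kb are 0.706 to 0.858 RPKM. Floors cover counting error only, and the 95% intervals of log2 fold changes come from the spread between libraries.

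Groups came from the titles. Genes with 3 or more libraries at RPKM 1 or above (11020) were tested with limma 3.58.1 in R 4.3.3 (trend) on log2(RPKM + 0.5), with Benjamini-Hochberg adjustment at 0.05. Shares were compared by exact permutation. The fit was also run on simulated data with few changed genes and no shift in scaling between groups. That setting differs from these data, so the run does not bear on the number or split of calls. Alternatives were other pseudocounts, filters, scalings, a robust prior, a replicate block, each library left out, and voom on the recovered reads. All members are named, and from the other lists genes past the threshold with a mean of at least 5 RPKM in the higher group, plus Sptlc1, Sptlc2, Ormdl3, Asah1, Sgpl1, S1pr4 and Pdxk. Other genes were named after their values were seen. Members and lists were chosen with earlier results of these data known. Positions are from GENCODE M21 and promoters from RefSeq, both GRCm38. Among the other sphingolipid genes, 1 gene counted in the totals is not reported here.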

Additional observations from a re-analysis of the deposited data

How the results depend on the processing

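Cers6, Degs1 and Sphk2 passed the threshold under all 16 alternatives. The number of members higher with OMP, 2 as reported, was 1 after rescaling to TPM and 1 with quantile normalization, and 1 to 2 when each library was left out. The number lower, 4 as reported, was 2 with quantile normalization, and 3 with median-of-ratios scaling and without a filter on low values. It was 5 with a filter at an RPKM of 5, after rescaling to TPM and with voom. With each library left out it was 3 to 4. Values that had not passed turned sign in places. With median-of-ratios scaling the log2 fold change of Asah1 was 0.035 and that of Pdxk 0.080, and with quantile normalization that of Pdxk was 0.106. With each library left out, the log2 fold change of Sptssa ranged from -0.148 to 0.0086 (without OMP replicate 3), that of Pdxk from -0.035 to 0.051 (without OMP replicate 1, and also above 0 without Vehicle replicate 3), and the difference in the share of Sgms1 in Sgms1 and Sgms2 from -0.015 (without OMP replicate 2) to 0.316 percentage points. The cause was not tested for any of these. Of the member values under alternatives, 126 kept direction and side of the threshold, 12 fell below it, 4 rose past it and 1 turned sign.

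Same-numbered libraries did not deviate together (correlations -0.0024, 0.015 and 0.0069), and 0 Vehicle libraries correlated best with the library of like number. With the replicate number as a block, 4445 genes passed against 4735, with 2 members higher and 4 lower, and the exact p of the Cers2 share was 0.25, the smallest that 3 pairs allow. Smpd4 and Gba2 were lost (adjusted p = 0.0653 and 0.0724). The scalings moved the median of all genes by at most 0.085 on the log2 scale. Sgms1 had the fewest reads of the tested members, 23 to 33 per library. It gives no value with a filter at an RPKM of 5. A log ratio for the share of Sphk1 was not run, since 0 reads leave it to the pseudocount.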

Other observations

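Of the 70 other sphingolipid genes, 24 were under the filter, and none of these exceeded 1.47 RPKM in any library. Among them 9 had 0 reads in all 6 libraries: Sptlc3 and Sptssb, alternative subunits of serine palmitoyltransferase, Fa2h, the fatty acid hydroxylase of myelin and skin lipids, A4galt and Ugt8a, which open the globoside and galactosylceramide branches, Plpp1 and Plpp3, lipid phosphate phosphatases, and the receptors S1pr1 and S1pr5. These were named after their values were seen.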
